A study of Mus musculus with 4 samples.

Results

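At embryonic day 17.5 (E17.5), shortly before birth in the mouse, 450 cells of a single-cell RNA library from sorted intestinal epithelium were set apart as fetal enterocytes, the absorptive cells of the villus. They were chosen on measured values. A cell was taken when it held at least 500 genes, at most 20% mitochondrial UMIs (unique molecular identifiers, the barcoded RNA copies that the assay counts), at least 1% of its UMIs in the 5 lipid-handling genes Apoa1, Apoa4, Apoc3, Fabp1 and Fabp2, less than 0.1% in the chromogranin genes Chga and Chgb, and fewer than 3 UMIs of the mucin gene Muc2. Of 5232 barcodes in the E17.5 library, 4602 passed the gene and mitochondrial limits, and 486 of these reached the 1% share. The chromogranin limit removed 26 of them and the Muc2 limit 10, which left 450 cells, or 9.78% of the cells that passed (exact Clopper-Pearson 95% interval 8.94% to 10.7%). The series holds 22731 barcodes in all.

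The series profiled Bmi1-expressing intestinal epithelial cells of mice in 4 libraries, named E12.5, E17.5, adult and irradiated adult, with 1 library in each group and no other treatment named. All 4 carried the Bmi1-GFP reporter, in which green fluorescent protein reports transcription of Bmi1, a Polycomb gene, and all 4 were sorted by flow cytometry before 10x Genomics 3' (version 3) libraries were made. The number, sex and pooling of animals, the adult age, the radiation dose and time, and the sorting gates were not given in the sources used here. With 1 library per group, every difference below is between cells of 1 library or between 2 libraries, has no replicate check and carries no p-value, and every interval covers counting error only.

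Enterocytes take up fat, sugars, amino acids, minerals and vitamins through a brush border of microvilli, break down the last short sugars and peptides with enzymes anchored in that border, and pack absorbed fat with apolipoproteins into chylomicrons. In the fetus and the suckling animal they also take up whole proteins by endocytosis and digest them in lysosomes, and lactase, the enzyme of milk sugar, precedes the sucrase of the adult diet. Their genes are known targets of the factors HNF4, CDX and GATA.

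The DNA in front of 5 of these genes is shown because Fabp1 and Fabp2 belong to the rule, Alpi (intestinal alkaline phosphatase) is a label marker outside it, and Lct (lactase) and Sis (sucrase-isomaltase) differed most in opposite directions among the digestive enzymes. Each run ends at the base before the RefSeq start site, except that of Fabp1, which is shorter and ends before the GENCODE M21 gene model that starts further upstream, and each reads 5' to 3' on the gene's strand (RefSeq, GRCm38.p6). The coordinates are chr6:71199629-71199826 on the plus strand for Fabp1, chr3:122894822-122895071 on the plus strand for Fabp2, chr1:87101607-87101856 on the minus strand for Alpi, chr1:128328319-128328568 on the minus strand for Lct and chr3:72967864-72968113 on the minus strand for Sis. Capitals mark exact matches, on either strand, to 3 motifs: CAAAGNNCA for HNF4, TTTATNG for CDX and AGATAA for GATA.
Fabp1: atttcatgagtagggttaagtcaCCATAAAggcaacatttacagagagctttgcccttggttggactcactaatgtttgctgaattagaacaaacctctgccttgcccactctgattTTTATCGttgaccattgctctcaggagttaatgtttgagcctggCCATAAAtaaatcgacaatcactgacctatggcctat
Fabp2: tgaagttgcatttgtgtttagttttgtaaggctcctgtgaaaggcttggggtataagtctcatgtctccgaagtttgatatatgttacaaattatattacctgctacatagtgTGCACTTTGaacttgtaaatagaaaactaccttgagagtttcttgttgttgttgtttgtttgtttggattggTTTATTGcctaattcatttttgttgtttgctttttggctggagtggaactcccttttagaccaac
Alpi: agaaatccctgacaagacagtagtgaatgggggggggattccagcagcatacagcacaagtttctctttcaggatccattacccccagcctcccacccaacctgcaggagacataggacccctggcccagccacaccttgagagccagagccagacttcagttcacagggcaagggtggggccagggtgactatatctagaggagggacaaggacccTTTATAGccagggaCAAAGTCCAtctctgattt
Lct: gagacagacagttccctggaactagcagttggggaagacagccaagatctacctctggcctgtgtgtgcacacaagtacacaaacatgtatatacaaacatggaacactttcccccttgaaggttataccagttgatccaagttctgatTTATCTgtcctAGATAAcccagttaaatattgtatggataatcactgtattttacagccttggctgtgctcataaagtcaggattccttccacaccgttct
Sis: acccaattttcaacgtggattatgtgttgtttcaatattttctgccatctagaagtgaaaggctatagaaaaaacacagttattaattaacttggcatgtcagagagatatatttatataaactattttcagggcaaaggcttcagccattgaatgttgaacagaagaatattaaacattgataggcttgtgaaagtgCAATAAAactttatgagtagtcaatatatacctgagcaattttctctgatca
Fabp1 held 3 CDX matches, the Fabp2 and Alpi runs held 1 CDX and 1 HNF4 match each, Lct held 2 GATA matches and Sis 1 CDX match. Among all 32851 windows of 300 bases in the RefSeq table (250 before and 50 after the start), 10.9% held the CDX motif, 6.36% the HNF4 motif and 11.2% the GATA motif. Among the 20 windows matched to the digestive enzyme list (14 of its 17 genes), 5 held the CDX motif, 3 the HNF4 motif and 4 the GATA motif. Among the 17 windows of the lipid absorption list (15 of its 21 genes), 5 held the CDX motif (29.4%), 4 the HNF4 motif (23.5%) and 3 the GATA motif (17.6%). A match is a description of letters, not a binding site or a cause.

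The label held on Alpi, the only one of its 4 markers (Apoa1, Apoa4, Fabp1 and Alpi) that the rule did not use. Levels are given as CPM, the UMIs of a gene per 1000000 UMIs, both summed over the cells of a set, with a 95% Poisson interval where one is printed. Alpi stood at 227 CPM in the enterocytes (217 to 236) and at 27.3 CPM in the 3793 other E17.5 cells with an Epcam UMI (26.1 to 28.6), the comparison set for what follows. It was seen in 388 of 450 enterocytes, with quartiles over cells of 104, 196 and 326 CPM. After each cell was thinned to 2000 UMIs, 41.2% of enterocytes held an Alpi UMI, against 2.95% of the other Epcam-positive cells. Among these, the share was 6.93% of goblet cells (at least 3 Muc2 UMIs), 5.66% of non-secretory cells and 4.97% of Olfm4-positive cells, the last 2 being sets defined with the comparison. It was 0.179% of endocrine cells and none of 58 mesenchymal cells, 2 kinds of cell that should lack it. Before thinning the shares were 86.2% of enterocytes, 38.6% of goblet, 34.1% of non-secretory and 35.2% of Olfm4 cells. The medians before thinning were 25821 UMIs in the enterocytes, 11961 in the other cells, 32161 in the goblet, 24775.5 in the non-secretory, 30646.5 in the Olfm4 cells, 6293.5 in the endocrine cells and 6310.5 in the mesenchymal cells. Epcam itself, a surface protein of epithelial cells, was seen in 419 of the enterocytes and not in 31, at 1742 CPM against 1871 CPM in the comparison set, where its presence was required.

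The 5-gene share spread from the 1% limit to 23.6% of a cell's UMIs, with a median of 3.64% and quartiles of 1.87% and 6.61%. It had no gap at the limit. The 32 cells just inside (1.0% to 1.2%) and the 45 just outside (0.8% to 1.0%) held 48.5 and 28.5 CPM of Lct, 443 and 407 CPM of Mttp, 72.2 and 129 CPM of the proliferation gene Mki67, 1138 and 575 CPM of Cdkn1c, 69.0 and 3.47 CPM of Afp, 134 and 160.5 CPM of Alpi, and 729 and 1040.1 CPM of Cps1. The Afp values came from few cells, 64 UMIs in 9 cells inside and 5 UMIs in 3 cells outside. Alpi was thus no higher just inside the limit than just outside, and an Alpi UMI was seen in 87.5% and 91.1% of these cells.

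**Figure D1:**
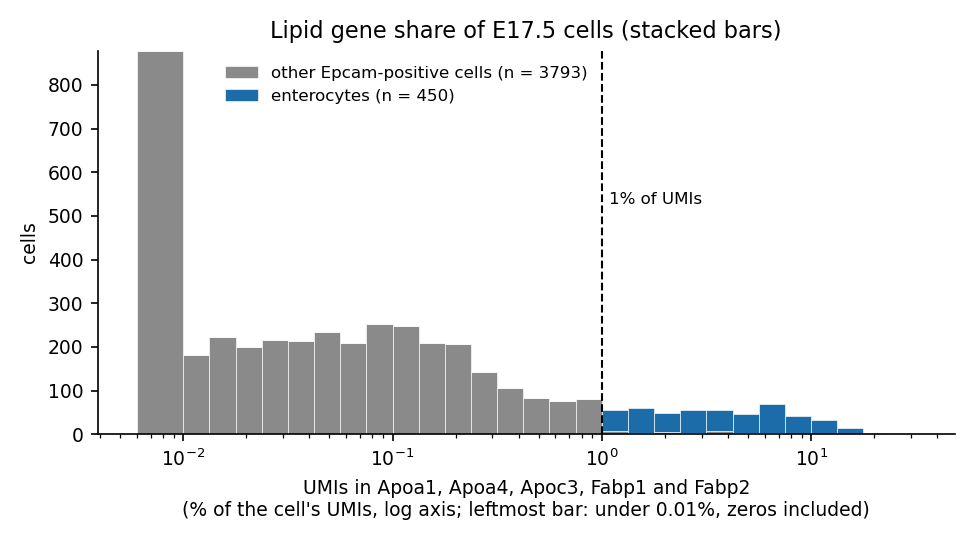
Stacked counts of E17.5 cells (vertical axis) by the percent of their UMIs in Apoa1, Apoa4, Apoc3, Fabp1 and Fabp2 (horizontal log axis) for the 450 enterocytes and the 3793 other Epcam-positive cells, with cells under 0.01% in the leftmost bar and a dashed line at the 1% limit. Counts run on across the line without a gap, and the few grey cells to its right met the share but not the chromogranin or Muc2 limit.

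Depth and the makeup of the comparison set bear on every ratio below. The enterocytes held a median of 22452.5 UMIs and 4471 genes per cell, with 5.72% mitochondrial UMIs, and the comparison set held 11713 UMIs, 3167 genes and 3.09%. Of the 3793 comparison cells, 1624 held at least 0.1% of their UMIs in Chga and Chgb, 500 held at least 1% in a list of pancreatic acinar genes and 264 at least 1% in a list of islet hormone genes, so the library labelled intestinal epithelium also held cells with pancreatic genes. Therefore 2 narrower sets stand beside it: 1588 non-secretory cells (without those 3 kinds and without goblet cells, median 24319.5 UMIs) and 364 Olfm4 cells (at least 3 UMIs of Olfm4, which marks intestinal progenitors, median 30558 UMIs). The name non-secretory refers to these limits only. Those cells still held 3748 CPM of the enteroendocrine list and 878 CPM of the goblet list, against 1162 and 85.3 CPM in the enterocytes.

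Genes of other cell types were also present in the enterocytes, and doublets were kept because the rule was applied as given. The enteroendocrine list reached 1% of UMIs in 16 members and the acinar list in 2. Those 2 cells held 71.5% of the enterocytes' Ctrb1 UMIs, and without the 18 cells Ghrl (ghrelin) went from 386 to 73.6 CPM and Ctrb1 (chymotrypsinogen) from 242 to 68.6 CPM. Removing the highest Scrublet doublet scores took away 193 cells of the library, 15 of them members. Over the lists, all 5 smooth muscle genes and all 6 measured mesenchymal genes were at least 2-fold lower in the enterocytes than in the comparison set, where 21.7% of all genes tested were. All 7 goblet and all 11 enteroendocrine genes were lower as well, which the Muc2 and chromogranin limits bring with them, since 1624 of the comparison cells were above the chromogranin limit. Against the Olfm4 cells, held to the same limits, all 5 measured goblet genes were lower, but 5 of 11 enteroendocrine genes were at least 2-fold higher and 2 lower. Among the tuft genes Trpm5, Pou2f3 and Il25 were at 0, and among blood genes Ptprc was at 0. Of the 8 hepatocyte genes Alb and Ahsg were at 0, but the list summed to 330 CPM. It summed to 963 CPM in the comparison set and 145 CPM in the Olfm4 cells. Of 5 measured hepatocyte genes, 1 was at least 2-fold higher and 2 lower than in the comparison set. Against the Olfm4 cells 3 of 4 were higher and 1 lower, where 12.4% and 13.9% of all genes were. Barcodes shared between any 2 libraries numbered 6 to 12, and of the members' barcodes 1 also occurred in the adult library, 1 in the irradiated adult and none in the E12.5 library.

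The sort named in the series design was for Bmi1 expression, yet Bmi1 UMIs were seen in 47 of the 450 enterocytes and eGFP UMIs in 6. Bmi1 stood at 5.33 CPM (3.97 to 7.01) against 11.1 CPM in the comparison set, and eGFP at 0.627 against 1.18 CPM. At 2000 UMIs per cell, 0.539% of enterocytes and 2.68% of the other Epcam-positive cells held a Bmi1 UMI, so neither value can show which cells carried the reporter protein. Of the 9 reporter and Polycomb genes none was at least 2-fold higher than in the comparison set and 1 was lower. Among all genes tested, 6.85% were higher and 21.7% lower. The lower gene was Ezh2, the methyltransferase of Polycomb repressive complex 2, at 39.9 against 86.2 CPM. Against the non-secretory and the Olfm4 cells 3 of 8 were lower in each, where 17.8% and 13.9% of all genes were.

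Over all 13307 genes with at least 50 UMIs in either sum, 912 (6.85%) were at least 2-fold higher in the enterocytes than in the other Epcam-positive cells and 2883 (21.7%) at least 2-fold lower, with 1 CPM added to both levels. The median gene stood 0.32 lower on the log2 scale. With edgeR's TMM scaling, under which the median gene stood 0.11 lower, the same counts were 1298 and 2432. Against the non-secretory cells, 869 of 11874 genes (7.32%) were higher and 2113 (17.8%) lower, with a median gene at -0.24. Against the Olfm4 cells, 1209 of 9754 (12.4%) were higher and 1354 (13.9%) lower, with a median gene at -0.10. The rule used these same cells, so the list counts that follow are set beside these shares as a description and nothing is read from them.

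**Figure D2:**
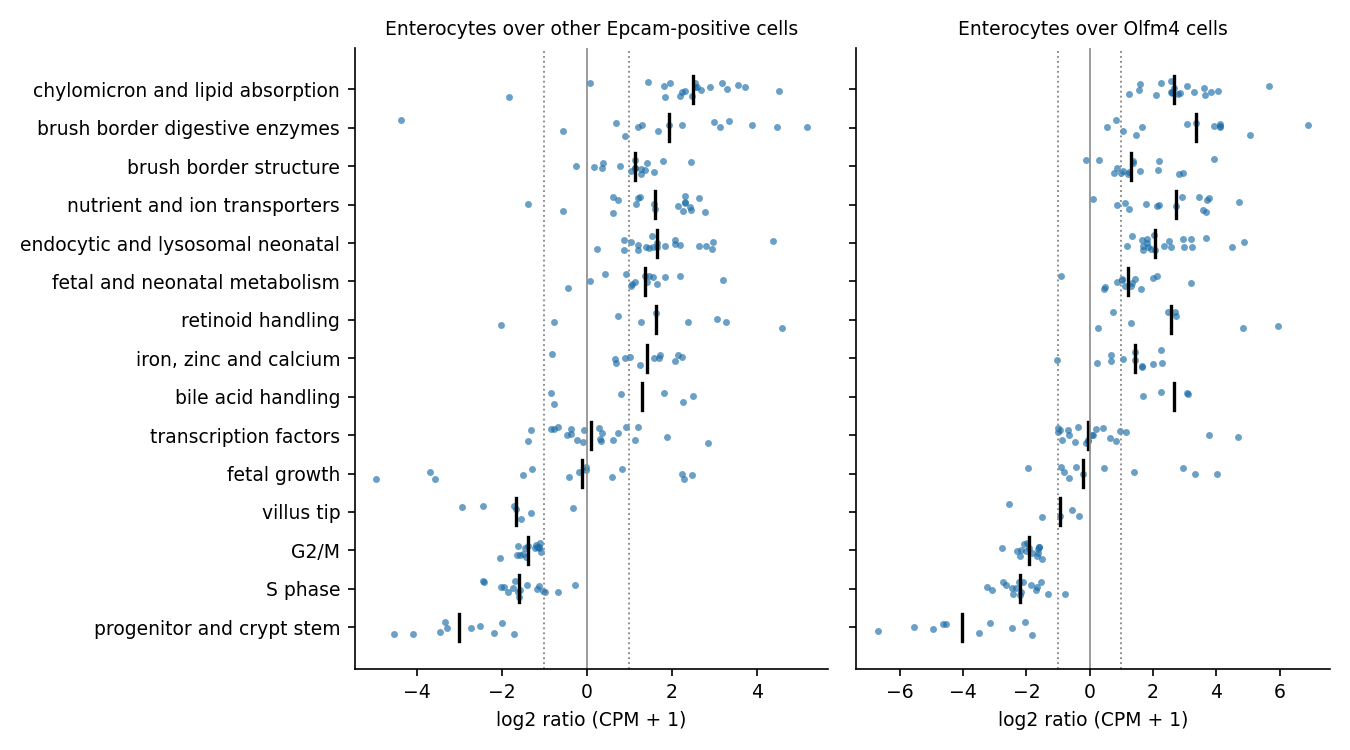
Log2 ratio (CPM + 1) of enterocytes over the other Epcam-positive cells (left) and over Olfm4 cells (right) for each measured gene of 15 lists, 1 point per gene, with the list median as a bar and dotted lines at 2-fold. Lists of absorption, digestion and endocytosis lie mostly to the right of the upper line, and the S phase and progenitor lists mostly to the left of the lower one.

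Genes that build and export chylomicrons were nearly all higher in the enterocytes. Of the 20 measured genes of the lipid absorption list (beyond the 5 of the rule), 18 were at least 2-fold higher than in the comparison set, 18 of 20 than in the non-secretory cells and 19 of 19 than in the Olfm4 cells, with list medians of 2.51, 2.27 and 2.67 on the log2 scale. Apob, the structural protein of the particle, stood at 509 CPM (495 to 524) against 86.7 CPM, and Mttp, which loads it with fat, at 722 against 119 CPM. Both were spread over the cells, with UMIs in 411 and 403 of the 450, and Mttp had quartiles of 435, 701 and 987 CPM.

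The re-esterification enzymes Mogat2 and Dgat2 stood at 349 and 243 CPM, against 59.2 and 23.6 CPM in the comparison set. Cd36, a fatty acid receptor, was at 22.9 against 0.798 CPM, a 28.7-fold difference (21.1 to 39.6), with UMIs in 138 cells. Npc1l1, the cholesterol uptake protein, was at 70.2 against 14.1 CPM, and the sterol exporters Abcg5 and Abcg8 were at 5.44 and 4.18 CPM against 0.829 and 0.583 CPM. Creb3l3, a membrane-bound transcription factor of lipid genes, was 24.3-fold higher (22.7 to 26.0) at 417 against 17.2 CPM. The exceptions were Abca1, a cholesterol exporter, which was lower at 0.732 against 5.14 CPM, and Scarb1, a lipoprotein receptor, at 14.2 against 13.5 CPM. Against the non-secretory and the Olfm4 cells no measured gene of the list was at least 2-fold lower.

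The digestive enzymes of the brush border differed among themselves. Of 15 measured, 11 were at least 2-fold higher than in the comparison set and 1 was lower, and against the Olfm4 cells 11 of 13 were higher. With 1 CPM added to both levels, Lct had the highest ratio of any gene that met the naming limits. It stood at 202 CPM (193 to 211) against 4.56 CPM (4.06 to 5.11), a 44.2-fold difference (39.1 to 50.2) without the added CPM. It was seen in 362 enterocytes with quartiles of 45.7, 167 and 382 CPM, and no cell held more than 23 of its 1929 UMIs. At 2000 UMIs per cell, 33.4% of enterocytes, 0.276% of Olfm4 cells, 2.97% of goblet cells and 0.179% of endocrine cells held an Lct UMI, and before thinning the shares were 80.4%, 1.92%, 15.8% and 1.57%.

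Among the peptidases, Mme (neprilysin) was at 79.0 against 2.55 CPM, Mep1b (meprin beta) at 68.7 against 5.82 CPM and Ace (angiotensin-converting enzyme) at 23.6 against 0.660 CPM. Differences were smaller for Anpep, the aminopeptidase N gene, at 249 against 77.4 CPM, and for Dpp4, a dipeptidyl peptidase, at 125 against 77.8 CPM.

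Sis ran the other way. Only 11 enterocytes held a UMI of it, and 2 of these held 54.3% of its 35 UMIs, for 3.66 CPM (2.55 to 5.09) against 95.7 CPM in the comparison set. The endocrine cells of the library (at least 1% of UMIs in Chga and Chgb, with or without an Epcam UMI) held 583 CPM of Sis. In the non-secretory cells it stood at 4.89 CPM and in the Olfm4 cells at 0.696 CPM. Without the 18 members that carried endocrine or acinar genes the enterocyte value was 0.543 CPM. The trehalase gene Treh was at 0.523 CPM and Tmprss15 (enteropeptidase) was at 0 UMIs, where a count of 3 would be 0.314 CPM.

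Structural genes of the microvilli were higher by smaller ratios. At least 2-fold higher were 11 of 16 in each of the 3 comparisons, with list medians of 1.14, 1.14 and 1.30. Vil1 (villin, an actin bundler) was at 311 against 127 CPM, Pls1 (fimbrin) at 225 against 40.2 CPM and Cdhr5, a cadherin that links microvilli, at 189 against 71.9 CPM. Krt20, a keratin of differentiated gut epithelium, was not higher than in the comparison set (60.7 against 72.9 CPM), but it was at 17.7 CPM in the non-secretory cells and 3.04 CPM in the Olfm4 cells.

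Of 19 measured transporters, 14 were at least 2-fold higher and 1, the fructose transporter Slc2a5, was lower, at 2.41 against 7.94 CPM. Against the Olfm4 cells 13 of 15 were higher, and no measured transporter was at least 2-fold lower there or against the non-secretory cells. The sodium-glucose transporter Slc5a1 stood at 178 CPM (169.8 to 187) against 32.4 CPM, and the basal glucose transporter Slc2a2 at 34.1 against 10.5 CPM. Both subunits of the cystine and basic amino acid carrier were higher, Slc7a9 at 291 against 58.0 CPM and Slc3a1 at 95.6 against 14.4 CPM. The neutral amino acid transporter Slc6a19 was at 85.6 against 18.6 CPM and the peptide transporter Slc15a1 at 21.2 against 8.31 CPM, while in Olfm4 cells the latter stood at 0.696 CPM.

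The endocytic and lysosomal genes known from the neonatal gut were high nearly throughout. Of 21 measured, 18 were at least 2-fold higher than in the comparison set, 20 than in the non-secretory cells and 21 than in the Olfm4 cells, with list medians of 1.66 over the comparison set and 2.07 over the Olfm4 cells on the log2 scale. Fcgrt, the neonatal Fc receptor that carries antibodies across the gut wall, was at 542 CPM (528 to 557) against 24.9 CPM, a 21.7-fold difference (20.6 to 23.0). It was seen in 420 cells, with quartiles of 223, 468 and 1096 CPM. At 2000 UMIs per cell, 56.9% of enterocytes and 1.38% of Olfm4 cells held an Fcgrt UMI, and so did 32.8% of mesenchymal cells, so the gene was not limited to enterocytes in this library.

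Transcripts of the protein uptake receptors were also higher. Amn (amnionless), the membrane anchor of cubilin, stood at 447 against 151 CPM, the scavenger receptor Cubn (cubilin) at 42.5 against 11.1 CPM and the clathrin adaptor Dab2 at 51.1 against 5.62 CPM. Cubn UMIs were seen in 210 and Dab2 UMIs in 208 of the 450 cells. Lrp2 (megalin), the partner receptor of cubilin, was at 12.9 against 1.23 CPM, with UMIs in 88 cells. The lysosomal glycosidases Neu1 and Glb1 stood at 364 and 355 CPM against 78.9 and 83.4 CPM. Mcoln3, a channel of endosomes, was at 45.3 against 4.99 CPM. The 3 genes short of 2-fold were Ctsd, Ctsh and Ctsl, cathepsin proteases of the lysosome, and Ctsl stood at 209 against 179 CPM but 36.2 CPM in the Olfm4 cells.

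In the list of fetal and neonatal metabolism, 11 of 15 measured genes were at least 2-fold higher and none was lower. Against the Olfm4 cells 10 of 14 were higher. Pck1, a gluconeogenic enzyme, was at 70.2 against 6.65 CPM. Of the arginine synthesis pair, Ass1 stood at 414 against 130.4 CPM and Asl at 75.7 against 33.7 CPM. Cps1, the carbamoyl phosphate enzyme that feeds this pathway, was at 664 CPM in the enterocytes, 632 in the comparison set and 1242 in the Olfm4 cells. Prdm1 (Blimp1), a repressor known to hold the fetal enterocyte programme in place, was at 63.9 CPM against 30.3 CPM in the comparison set and 34.5 CPM in the Olfm4 cells.

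Retinoid genes were led by Rbp2, the cellular retinol carrier of enterocytes, at 2384 CPM (2353 to 2415) against 97.6 CPM, with UMIs in 436 cells and quartiles of 949, 2152 and 4359.6 CPM. Lrat, which esterifies retinol, was at 69.5 against 7.37 CPM and Adh1, an alcohol dehydrogenase, at 162 against 15.8 CPM. In all, 6 of 9 measured genes were at least 2-fold higher, and Bco1, the carotene-cleaving enzyme, was lower at 0.627 against 5.66 CPM. Against the non-secretory and the Olfm4 cells no measured retinoid gene was at least 2-fold lower. Of 12 measured iron, zinc and calcium genes 8 were higher than in the comparison set. Among them were the iron importer Slc11a2 (59.5 against 13.3 CPM), the iron exporter Slc40a1 (195 against 43.1 CPM) and the calcium-binding S100g (769 against 256 CPM). Vdr, the vitamin D receptor, was at 3.14 CPM against 6.29 in the comparison set and 7.56 in the Olfm4 cells.

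The bile acid genes were divided. Nr1h4 (the bile acid receptor FXR) and the basal exporter subunits Slc51a and Slc51b were at 129, 235 and 71.7 CPM against 35.7, 48.0 and 11.9 CPM. Slc10a2 and Fabp6, the apical importer and the cytosolic carrier of bile acids in the ileum, were at 0.941 and 3.03 CPM against 2.46 and 5.91 CPM, and at least 2-fold lower than in the non-secretory cells (3.46 and 8.48 CPM).

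Of 22 measured transcription factors, 4 were at least 2-fold higher, among them Maf, Hnf4g and Esrra. Klf4 and Pdx1 were the 2 that were lower, and 16 lay between. Among all genes tested, 6.85% were higher and 21.7% lower. Against the Olfm4 cells 3 of 21 were higher and 1 lower, where 12.4% and 13.9% of all genes were. Maf, a basic leucine zipper factor, stood at 237 CPM (227 to 246) against 32.0 in the comparison set and 16.6 in the Olfm4 cells, with UMIs in 376 cells. By contrast, Cdx2 was at 213 against 174 CPM, Hnf4a at 91.6 against 72.7 CPM and Gata4 at 41.1 against 24.3 CPM. Hes1, a Notch target that keeps cells from the secretory fate, was at 124 against 201 CPM.

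Imprinted and fetal growth genes stood on both sides. H19, a maternally expressed imprinted RNA (chr7:142575529.0-142578143.0, GRCm38), was at 3616 CPM (3578 to 3654) against 764 CPM, with UMIs in 445 of 450 cells and quartiles of 2540.3, 3721 and 5114 CPM. Its neighbour Igf2, a growth factor (chr7:142650766.0-142666816.0), was at 51.4 against 8.35 CPM, and Cdkn1c (p57), an imprinted inhibitor of cyclin-dependent kinases, at 1359.7 against 276 CPM and 83.0 CPM in the Olfm4 cells. Of the 14 measured genes the other 5 past 2-fold were lower: Hmga2, a chromatin protein of growing tissue, Dlk1, Peg3, Mest and Grb10. Hmga2 stood at 34.9 CPM in the enterocytes, 134 in the non-secretory cells and 138 in the Olfm4 cells. Dlk1 stood at 2.82 CPM, against 118 in the comparison set, 5.04 in the Olfm4 cells and 5749 in the mesenchymal cells, and Mest had no UMI in the enterocytes.

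Genes with a known zone along the adult villus gave a mixed picture. Of 6 genes of the villus bottom, 4 were at least 2-fold higher than in the comparison set: Il18, a cytokine, at 91.7 against 10.2 CPM, Lypd8, which keeps bacteria off the epithelium, at 3715 against 1595 CPM, Nlrp6, an inflammasome sensor, at 188 against 80.1 CPM, and Reg3g. Against the non-secretory cells Il18 alone was past 2-fold, at 13.5 CPM there. Of 7 genes of the villus tip none was higher than in the comparison set and 6 were lower, with Egfr between. Only 3 of 6 measured were lower against the non-secretory cells and 2 of 5 against the Olfm4 cells, with none higher. Ada, an adenosine deaminase, stood at 0.732 CPM against 4.53 CPM in the comparison set. The immediate early genes Fos and Junb were at 221 and 105 against 730.2 and 312 CPM there. Nt5e, an ecto-nucleotidase, was at 0.627 against 11.5 CPM but at 0.794 CPM in the non-secretory cells.

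Genes named by rank alone added secreted and detoxifying products. The 15 with the highest ratio were Lct, Apoa4, Fabp1, Leap2, Rbp2, Clca4b, Gsta2, Creb3l3, Mme, F10, Meltf, Fcgrt, Gda, Npl and Apoa1. Leap2, a peptide that opposes ghrelin at its receptor, was at 55.3 CPM (50.7 to 60.2) against 1.14 CPM, with UMIs in 179 cells. Gsta2, a glutathione transferase, was at 116 against 3.95 CPM and Gda, which deaminates guanine, at 179 against 7.71 CPM. Npl, an enzyme that cleaves sialic acid, was at 376 against 18.3 CPM, and F10, coagulation factor X, at 63.8 against 1.90 CPM. The 10 with the lowest ratio were Ins2, Ins1, Gcg, Tac1, Chga, Nnat, Spink4, Chgb, Spp1 and Rnase1, which include islet, endocrine and goblet genes of the comparison set.

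Genes of the cell cycle and of progenitors were low. All 15 G2/M genes were at least 2-fold lower than in the comparison set, the non-secretory cells and the Olfm4 cells, although 8 of the 15 were past 2-fold against the comparison set with TMM scaling and 7 when CPM was averaged over cells. Of 17 S phase genes 14 were lower (11 with TMM scaling), and 16 against the Olfm4 cells. Mki67 stood at 47.8 CPM (43.5 to 52.4) against 149.6 CPM, and Top2a, the topoisomerase of dividing cells, at 50.3 against 212 CPM. All 10 progenitor and crypt stem genes were lower, with Olfm4 in 14 enterocytes at 2.61 against 82.8 CPM and Sox9 at 10.0 against 72.4 CPM. The receptor gene Lgr5 had 3 UMIs in the enterocytes (0.314 CPM) and 13.4 CPM in the comparison set. Of 10 Notch and secretory fate genes 6 were lower and none higher, among them the receptor Notch1 at 6.17 against 21.8 CPM and the secretory fate factor Atoh1, which had no UMI in the enterocytes and 7.09 CPM in the comparison set.

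Counted cell by cell, with a cell called cycling at 3 or more UMIs over the 15 G2/M genes after thinning to 2000 UMIs, 15.6% of 371 enterocytes were cycling (exact Clopper-Pearson 95% interval 12.1% to 19.7%). The shares were 32.2% of the other Epcam-positive cells, 56.7% of the non-secretory cells and 72.4% of the Olfm4 cells, and 1.61% of the endocrine cells. Thinning left out 79 enterocytes and 60 comparison cells. Without thinning the shares were 43.8% of enterocytes and 47.9% of the comparison set.

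Among the enterocytes, many genes followed the 5-gene share. The cells were split into bands of 1% to 2% (130 cells), 2% to 5% (144), 5% to 10% (127) and at least 10% (49). From the lowest band to the highest, Lct stood at 76.7, 181, 371 and 567 CPM, Fcgrt at 201, 432, 998 and 2090.2 CPM, and Rbp2 at 770.2, 2079, 4767 and 6147 CPM. Mme, Clca4b, Creb3l3 and Mttp had the same order of bands, as did H19, at 2739.7, 3722, 4601 and 4974 CPM. The opposite order held for Cps1, at 780.2, 688, 501 and 337 CPM, and for Hes1, at 157, 127, 82.0 and 47.7 CPM. Cdx1 and Hmga2 also had their lowest value in the highest band. Prdm1 and Onecut2 showed no such order, with Prdm1 at 69.6, 60.5, 63.3 and 44.9 CPM.

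Cycling cells were seen in the lower bands at this depth: 31.9% of 119 cells (23.7% to 41.1%), 15.7% of 127 (9.89% to 23.3%), 0 of 93 (upper bound 3.89%) and 0 of 32 (upper bound 10.9%). Depth moved with the bands. The median was 27343 UMIs in the lowest band, 25057 and 19292 in the next, and 2375 in the highest, where the mitochondrial share was 7.91% against 4.97% in the lowest. The 79 enterocytes under 2000 UMIs held 20441 CPM of Malat1, a nuclear RNA, against 2729 CPM in the 345 cells with 5000 UMIs or more (Malat1 was added after its values were seen), and 998 against 3764 CPM of Lypd8, a secreted protein of the epithelium. With only the 345 deeper cells (119, 123, 85 and 18 in the bands), a check added after seeing the data, the order was the same: Lct stood at 75.6, 178, 368 and 552 CPM, Fcgrt at 201, 423, 980.4 and 2073 CPM, H19 at 2719, 3603, 4348 and 4718 CPM, and Hes1 at 157, 128, 81.6 and 48.0 CPM.

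**Figure D3:**
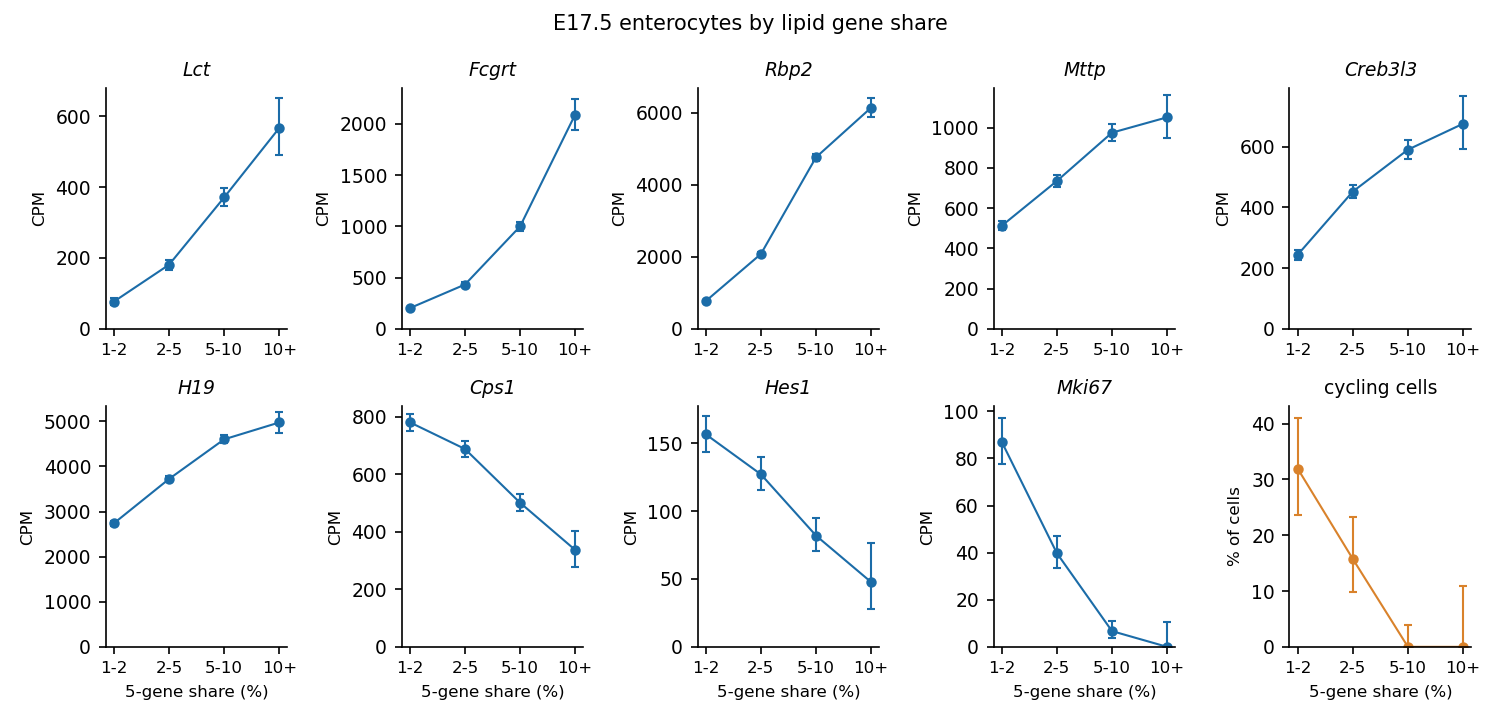
CPM with 95% Poisson intervals of 9 genes, and percent of cycling cells with 95% exact intervals (last panel), over 4 bands of the 5-gene share (130, 144, 127 and 49 cells). Lct, Fcgrt, Rbp2, Mttp, Creb3l3 and H19 are higher in each next band, and Cps1, Hes1, Mki67 and the cycling share are lower or at 0.

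A small set of enterocytes met the rule almost without Fabp1, the liver-type fatty acid binding protein. Over the members Fabp1 made up a median of 38.2% of the 5 genes' UMIs, with quartiles of 22.8% and 46.3%, but in 19 cells it made up less than 2%. These cells were picked after the values had been seen, and are set beside the 289 cells with at least 30%, as values only. They were not shallow, with a median of 18180 UMIs against 26999, while the 142 cells between them had 2125.5. Their Fabp1 level was 56.5 CPM against 18369 CPM, while Apoa1 stood at 7890.1 against 5512 CPM and Fabp2 at 4843 against 11332 CPM.

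The Fabp1-poor cells were low in Creb3l3 (68.4 against 451 CPM), Rbp2 (187 against 2675 CPM), Lct (56.5 against 215 CPM) and Gata4, a factor of the proximal small intestine (8.92 from 3 UMIs, against 42.9 CPM). Onecut2, a factor also known from the proximal gut, had no UMI in any of the 19 and 167 CPM in the 289 cells, and Mme had none either. They were high in the protein uptake genes Amn (984 against 411 CPM), Cubn (149 against 35.2 CPM) and Dab2 (190.3 against 39.7 CPM), and in Guca2a, the guanylin gene (274 against 6.23 CPM). The ileal carrier Fabp6 was at 56.5 against 0.908 CPM, with UMIs in 7 of the 19 cells. Afp (alpha-fetoprotein) stood at 880.0 against 25.04 CPM, but 1 cell held 181 of its 296 UMIs, and without it the value was 362 CPM. The 5-gene share moved with this split, with a median of 1.64% in the Fabp1-poor and 3.58% in the Fabp1-rich cells. In the 130 members of the 1% to 2% band Lct stood at 76.7 CPM, inside the interval of the Fabp1-poor cells (34.0 to 88.2), so its level there was not particular to them. The same band held 244 CPM of Creb3l3, 770.2 of Rbp2, 124 of Onecut2, 406 of Amn and 34.1 of Guca2a. Fabp1-poor cells with a share under 2% belong to this band as well, so its values include theirs. Guca2a had 119 UMIs in the band and 92 in the 19 Fabp1-poor cells. No label gives the position along the gut from which a cell came.

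**Figure D4:**
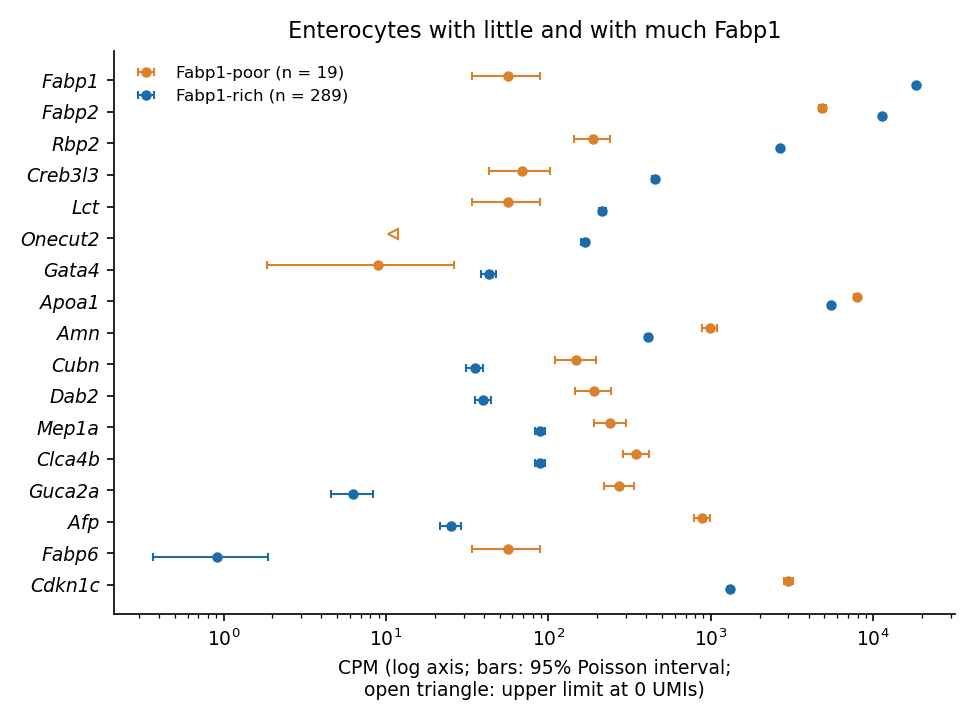
CPM (log axis) with 95% Poisson intervals for 17 genes in the 19 Fabp1-poor and the 289 Fabp1-rich enterocytes, with an open triangle for the upper limit where a set had 0 UMIs. Creb3l3, Lct, Rbp2, Gata4 and Onecut2 are lower, and Amn, Cubn, Dab2, Guca2a and Fabp6 higher, in the Fabp1-poor cells.

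The same rule was then applied to the other libraries. It found no cell at E12.5, where the highest 5-gene share was 0.344%, 666 cells in adult intestine and 86 after irradiation. Most of the adult cells carried tuft cell genes: 638 of 666 (95.8%) and 82 of 86 (95.3%) held at least 0.05% of their UMIs in the tuft list, and Dclk1, a tuft marker, stood at 999 CPM in the 666 cells against 0.105 CPM at E17.5. Against these 666 cells, 2662 of 9403 genes (28.3%) were at least 2-fold higher at E17.5 and 1539 (16.4%) lower, and against the 86 irradiated cells 2544 of 8913 (28.5%) were higher and 1098 (12.3%) lower. The 10 highest at E17.5 over the adult were H19, Mamdc4, Npl, Ass1, Ctrb1, Meltf, Smim1, Tfec, Nrn1 and Hao2, and the 10 lowest included Sh2d6, Matk, Nrgn, Lrmp, Alox5ap, Rac2, Dclk1, Rgs13 and Defa30, several of them known tuft cell genes. Lct stood at 48.0 CPM in the 666 adult and 78.5 CPM in the 86 irradiated cells, Alpi at 114 and 117 CPM, Fcgrt at 27.8 and 31.4 CPM, and Sis at 299 and 263 CPM.

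The adult cells that met the rule with less than 0.05% of UMIs in the tuft list numbered 28, a restriction chosen after seeing the data. They held 1167724 UMIs, a median of 34572 UMIs, a 5-gene share of 4.07% and 11.4% mitochondrial UMIs, and 9 of them held at least 1% in the enteroendocrine list, with Gip at 6344 CPM. Against them 2123 of 8798 genes (24.1%) were at least 2-fold higher at E17.5 and 606 (6.89%) lower, and the median gene stood 0.36 higher on the log2 scale. Stage and library differ together and cannot be told apart.

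Several enterocyte genes lay within 2-fold in both stages. Apoa1, Apoa4 and Fabp1 did too, but the rule chose the cells of both libraries on them, so nothing is read from it. Outside the rule, Alpi stood at 227 CPM at E17.5 and 378 CPM in the adult cells. Lct (202 and 163 CPM), Mttp (722 and 1000.2) and Creb3l3 (417 and 382) were also within 2-fold. Several lists stood lower at E17.5: 8 of 15 digestive enzymes, 8 of 17 transporters and 6 of 16 structural genes were at least 2-fold lower and 1 of each was higher, with medians of -1.14, -0.83 and -0.71. Among all genes tested, 6.89% were lower and 24.1% higher.

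Sis was at 3.66 CPM at E17.5 and 949 CPM in the adult cells (894 to 1006), where 27 of 28 cells held it. Treh was at 0.523 and 116 CPM, Mep1b at 68.7 and 539, Arg2 (mitochondrial arginase) at 0.418 and 1138, Khk (ketohexokinase) at 43.3 and 671, Vdr at 3.14 and 149.9, and Rdh7, a retinol dehydrogenase, at 7.01 and 236. The antimicrobial lectins Reg3b and Reg3g were at 49.5 and 7.53 CPM at E17.5 and 3502 and 1454 CPM in the adult cells.

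The endocytic and lysosomal list stood higher at E17.5 in 14 of 21 genes and lower in 1, Ctsh, with a median of 2.28. The shares of all genes tested were 24.1% higher and 6.89% lower. Dab2 and Mcoln3 had no UMI in the adult cells and were at least 19.9-fold and 17.6-fold higher at E17.5, counting 3 UMIs over the 28 cells in place of 0. Neu1 was at 364 against 27.4 CPM, Glb1 at 355 against 23.1 and Fcgrt at 542 against 90.8 CPM. Cubn was at 42.5 CPM against 1.71 CPM from 2 UMIs.

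Ass1 was at 414 CPM at E17.5 and at 0 in the adult cells, at least 161-fold higher. H19 had no UMI in the adult cells and was at least 1408-fold higher at E17.5, and 9 of the 10 measured fetal growth genes were higher at E17.5, with a list median of 5.12 on the log2 scale, or 3.72 with the 6 genes at 0 counted at 3 UMIs. Slc28a2, a nucleoside transporter, was at 88.3 CPM and at 0 (at least 34.4-fold), and Slc40a1 at 195 against 18.8 CPM. All 15 G2/M genes were higher at E17.5, 7 of them at 0 in the adult cells, with a median of 3.88 (3.45 with those genes at 3 UMIs). In these and the endocytic list, a gene at 0 in the adult cells was measured only through its E17.5 UMIs. Such a gene could only be called higher at E17.5. Among all genes tested, 24.1% were higher and 6.89% lower. Prdm1 stood at 63.9 CPM at E17.5 and 0.856 CPM from 1 UMI in the adult cells.

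**Figure D5:**
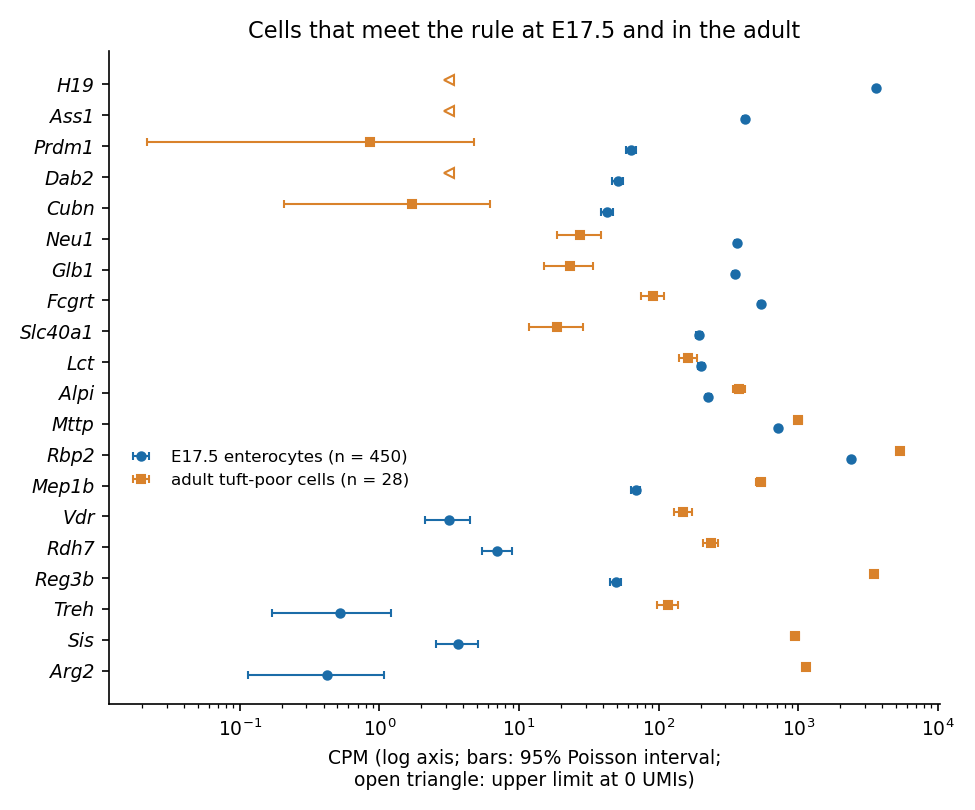
CPM (log axis) with 95% Poisson intervals for 20 genes in the 450 E17.5 enterocytes and the 28 tuft-poor adult cells that met the same rule, with an open triangle for the upper limit where a set had 0 UMIs. H19, Ass1 and the endocytic genes lie higher at E17.5, Lct, Alpi and Mttp lie close together, and Sis, Arg2, Treh, Rdh7 and Vdr lie higher in the adult cells.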

How the data were processed

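The values are raw UMI counts per gene and barcode, as deposited by the authors and made with Cell Ranger 3.1.0 on mm10 per the submitters' processing notes. The rule by which they chose barcodes is not given in the sources used here. Totals were 77677622 UMIs at E17.5, 90674425 at E12.5, 38648331 for adult and 50761353 for irradiated adult. Of 31054 features, 31011 matched GENCODE M21.

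The members and the 31 gene lists were chosen with earlier results of these data known. Counts were summed over the cells of a set (9562857 UMIs in the enterocytes and 65140626 in the comparison set) and scaled to CPM, and log2 ratios used a pseudocount of 1 CPM. Genes with at least 50 UMIs in either sum were measured, and called at 2-fold. This minimum is a lower level in the set with more UMIs, so genes entered more easily through that set. Intervals are exact Poisson, or exact Clopper-Pearson for shares of cells, at 95%, and a set at 0 was given 3 UMIs for a bound. Named genes are the list members, the 15 highest and 10 lowest ratios against the comparison set and the 10 highest and 10 lowest against the adult cells (at least 200 UMIs, in at least 10% of cells, without mitochondrial, ribosomal, haemoglobin, immunoglobulin, sex-linked and predicted genes). Epcam, Malat1, Csf1r, C1qa, Lyz2, Adgre1, Cd68, Guca2a and Guca2b, the Fabp1 split, the depth strata and the tuft-poor adult cells were chosen after seeing the data. Some list members and ranked genes are not reported here.

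Doublets were kept; Scrublet removal at 0.8% per 1000 barcodes was an alternative, since the automatic threshold marked 26 cells (0.565%). Further alternatives changed the rule's share, the cell filter, the scaling, the pseudocount, the count minimum, the fold and the thinning. The tools were edgeR 4.0.16 (TMM factors only) in R 4.3.3, and scanpy 1.11.5, pandas 2.3.3, numpy 2.4.6 and scipy 1.17.1 in Python 3.11.15, and the steps were tested on simulated data.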

Additional observations from a re-analysis of the deposited data

How the results depend on the processing

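The 912 genes higher in the enterocytes became 516 with a pseudocount of 10 CPM, 1769 at 1.5-fold and 240 at 4-fold, and the 2883 lower genes became 684, 4843 and 930. Cycling enterocytes (15.6%) became 21.6% at 2 G2/M UMIs, 9.97% at 5 UMIs, 9.93% at 1000 UMIs per cell, 24.0% at 4000 and 43.8% without thinning. In the other Epcam-positive cells (32.2%) the values were 36.6%, 23.4%, 21.7%, 39.3% and 47.9%. Adult cells that met the rule (666) became 421 at a 2% share, 163 at 1000 genes and 10% mitochondrial UMIs, and 28 without tuft genes, and irradiated adult cells (86) became 32, 11 and 4. Against the adult, 2662 higher genes became 1495 with 10 CPM, 1765 at 200 UMIs and 850 at 4-fold, and 1539 lower genes became 810 at 200 UMIs, 2412 at 1 UMI, 820 at 4-fold and 606 against tuft-poor cells. Against the irradiated adult, 2544 higher genes became 1451, 1690 and 895 with the same 3 settings, and 1098 lower genes became 1908 at 10 UMIs, 404 at 200 UMIs, 2945 at 1 UMI, 1818 at 1.5-fold and 457 at 4-fold. Other count minimums change how many genes are tested, and other folds and pseudocounts the threshold. Against tuft-poor cells the comparison cells changed, and the share of lower genes went from 16.4% of 9403 to 6.89% of 8798. Among 378 values (21 genes under 18 settings), 240 lay inside the counting interval of the gene's main fold (without the added CPM) and 138 outside it. The settings that changed only the count minimum or the fold left every gene's ratio as it was, so those values could not move. Of 504 list counts, 465 stayed within 1.5 times. No gene past 2-fold in the main setting changed sign, which the count minimum, fold and pseudocount settings could not have brought about. Sign changes of genes within 2-fold, such as Cps1, were not counted. No paired analysis was possible because each group has 1 library. With 1 library, 28 adult cells and single-UMI steps for low genes, these values describe the cells measured.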

Other observations

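Several genes outside the lists stood out in the enterocytes and were named after their values were seen. Csf1r, the receptor for colony stimulating factor 1 known from macrophages, had UMIs in 121 of the 450 enterocytes, at 26.6 CPM against 0.936 CPM in the other Epcam-positive cells and 0.348 CPM in the Olfm4 cells. No cell held more than 7 of its 254 UMIs. Over the bands of the 5-gene share it stood at 12.9, 12.7, 48.1 and 159.9 CPM, and the 79 enterocytes under 2000 UMIs held 182 CPM against 24.5 CPM in those with 5000 or more. Of the macrophage genes, Ptprc, Adgre1 and Lyz2 were at 0 in the enterocytes, C1qa was at 0.523 CPM against 41.7 CPM in the comparison set, and Cd68 was at 3.14 against 5.17 CPM.

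Guca2b, the uroguanylin gene, was at 275 CPM (265 to 286) against 31.7 CPM, in 359 cells, while Guca2a (guanylin) was at 18.6 against 35.7 CPM. Upk3b, listed as a mesothelial gene, was at 30.01 against 9.59 CPM in 183 enterocytes, with the mesothelial genes Wt1 and Lrrn4 at 0 and Msln at 1.15 CPM. In the endocrine cells of the same library Afp stood at 914 CPM and Sis at 583 CPM, against 65.3 and 3.66 CPM in the enterocytes.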
